A study of Mus musculus with 24 samples.

Results

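The regions described here are the H3K4me3 peaks of embryonic mouse forebrain that also carried H3K27me3 in forebrain but lay on no H3K27me3 in newborn lens. They were chosen by interval overlap. A member is an autosomal forebrain H3K4me3 peak that overlaps a forebrain H3K27me3 island by at least 1 bp and no lens H3K27me3 island. Of 14893 autosomal forebrain H3K4me3 peaks, 1886 met the rule, which is 12.7% of them (exact 95% interval 12.1 to 13.2%) and 51.5% of the 3661 peaks on forebrain H3K27me3. The other 514 of the 15407 peaks in the list lay on chromosome X or Y and were left out. Membership was selected on the forebrain H3K4me3, forebrain H3K27me3 and lens H3K27me3 lists, so values of those 3 lists are given as description only. The lens lists of H3K4me3, H3K27ac, RNA polymerase II (Pol2), FAIRE, Pax6 and H3K4me1, and the forebrain lists of H3K27ac, Pol2, Pax6 and H3K4me1, had no part in the rule.

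H3K4me3 is the methylation of histone H3 at lysine 4 found at active and poised promoters. H3K27me3 is set by the Polycomb complex PRC2 and marks repressed developmental genes. A promoter that carries both is called bivalent, a state best known from embryonic stem cells and progenitors, in which it can resolve towards activity with loss of H3K27me3 or towards silence with loss of H3K4me3. H3K27ac sits on the same lysine as H3K27me3, so a histone tail cannot carry both, and it marks active promoters and enhancers. Pol2 is the enzyme that transcribes protein-coding genes, FAIRE recovers nucleosome-poor open chromatin, H3K4me1 is frequent at enhancers and promoter flanks, and Pax6 is the transcription factor that both tissues need for their development.

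The series holds 24 samples in 18 groups of CD-1 mice. The lens groups come from newborn animals at P1 and the forebrain groups from embryos at E12.5. Each tissue was sampled at 1 age, and effects of tissue and of age cannot be told apart. ChIP of the 4 histone marks, Pol2 and Pax6 was done on crosslinked, sonicated dissected tissue, whole lens (epithelium and fiber cells together) and whole forebrain, with FAIRE in lens, and RNA was measured in lens epithelium, lens fibers and forebrain. Every list used here comes from 1 library, except forebrain Pax6, where 2 libraries share 1 list. With 1 library a group there is no replicate spread and no p-value. Shares below carry exact Clopper-Pearson 95% intervals and differences of shares carry 95% Newcombe intervals, in percentage points. These cover counting error within the lists, with each peak taken as independent, and not the spread between animals. A difference is called here when its interval does not include 0. In bulk tissue, H3K4me3 and H3K27me3 on the same stretch may sit in different cells or on different alleles.

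The forebrain H3K27me3 list held 21640 autosomal islands over 153.0 Mb, with 8.54 M ChIP reads on them and a median length of 4800 bp. The lens list held 23959 islands over 96.1 Mb, with 2.85 M ChIP reads and a median length of 2800 bp. The lens list thus had shorter islands and fewer reads on them. These are reads on called islands and do not give the depth of the library. The part of these list differences in the number of peaks found without lens H3K27me3 was not tested. The depth behind the MACS2 peak lists is unknown. In the RNA libraries, given as RPKM (reads scaled to gene length and library size), 9 lens markers summed to 13624 in lens epithelium and 188295 in lens fibers, against 25.7 in forebrain. The 8 forebrain markers summed to 16.3 and 4.18 in the lens libraries, against 696.0 in forebrain, and Emx1, Emx2, Dlx1, Dlx2 and Lhx2 were listed at 0 in fibers. Markers of other cells were present. The 4 blood markers summed to 344 and 5.97 in lens epithelium and fibers, against 1131 in forebrain. The sums in lens epithelium, lens fibers and forebrain were 40.2, 1.70 and 16.9 for 4 endothelial markers, 28.1, 0.388 and 0.310 for 4 retinal markers, and 55.9, 2.73 and 20.3 for 4 mesenchymal markers. The mesenchymal sum in lens epithelium was mostly Pdgfra, at 52.9 of the 55.9. Col1a1, Col1a2 and Twist1 were lower in lens epithelium (0.646, 1.68 and 0.618) than in forebrain (2.72, 12.7 and 2.02). The part of other cells in the peak lists was not tested.

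Most members kept an H3K4me3 peak in lens, and about as many had H3K27ac listed there as in forebrain. Few overlapped a listed lens Pol2 peak or FAIRE region. The H3K27ac lists differ in length, with 19734 autosomal peaks in lens and 26231 in forebrain. A peak missing from a list does not show that the mark was absent. A lens H3K4me3 peak overlapped 1747 of the 1886 members, 92.6% (91.4 to 93.8%), against 92.3% of all autosomal forebrain H3K4me3 peaks. Lens H3K27ac overlapped 1027 members, 54.5%, against 71.2% of all peaks. Lens Pol2 overlapped 159 members, 8.43%, against 20.5% of all peaks. FAIRE regions overlapped 111 members, 5.89%, against 17.3% of all peaks. Lens Pax6 overlapped 17 members, 0.901%, against 1.41% of all peaks. So the share with lens H3K4me3 was near that of all peaks, and the shares with lens H3K27ac, Pol2 and FAIRE were lower. The Pax6 share had an exact interval of 0.526 to 1.44%, which includes that of all peaks.

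The class most like the members are the 1775 peaks on H3K27me3 in both tissues. They are called bivalent in both tissues here, but the class did not require H3K4me3 in lens. A lens H3K4me3 peak was listed at 1342 of the 1775, so the others were not bivalent in lens by these lists. A peak that was not called may still carry the mark. Against this whole class, members more often had lens H3K4me3, at 92.6% of members and 75.6% of peaks bivalent in both tissues (difference 17.0, 14.7 to 19.3). Lens H3K27ac overlapped 54.5% of members and 25.6% of peaks bivalent in both tissues (difference 28.9, 25.8 to 31.9). Lens Pol2 overlapped 8.43% of members and 1.75% of peaks bivalent in both tissues (difference 6.68, 5.31 to 8.12). FAIRE overlapped 5.89% of members and 3.27% of peaks bivalent in both tissues (difference 2.62, 1.27 to 3.98). All 4 differences were called. Lens Pax6 overlapped 0.901% of members and 0.507% of peaks bivalent in both tissues, a difference of 0.394 whose interval of -0.171 to 0.983 includes 0, and it was called at 1.86 when Pax6 within 1 kb was counted.

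The 10950 peaks that lay on H3K27me3 in neither tissue are the other end of the scale. Lens H3K27ac overlapped 54.5% of members and 82.1% of these peaks (difference -27.6, -30.0 to -25.2). Lens Pol2 overlapped 8.43% of members and 26.1% of the peaks free of H3K27me3 (difference -17.6, -19.1 to -16.1). FAIRE overlapped 5.89% of members and 21.7% of the peaks free of H3K27me3 (difference -15.8, -17.1 to -14.4). Lens Pax6 overlapped 0.901% of members and 1.67% of the peaks free of H3K27me3, a difference that was called (-0.770, -1.19 to -0.188). The members therefore lay between the 2 classes in lens H3K27ac, Pol2 and FAIRE. In lens H3K4me3 they were close to the peaks free of H3K27me3, which had it at 95.4% (difference -2.73, -4.05 to -1.56).

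**Figure D1:**
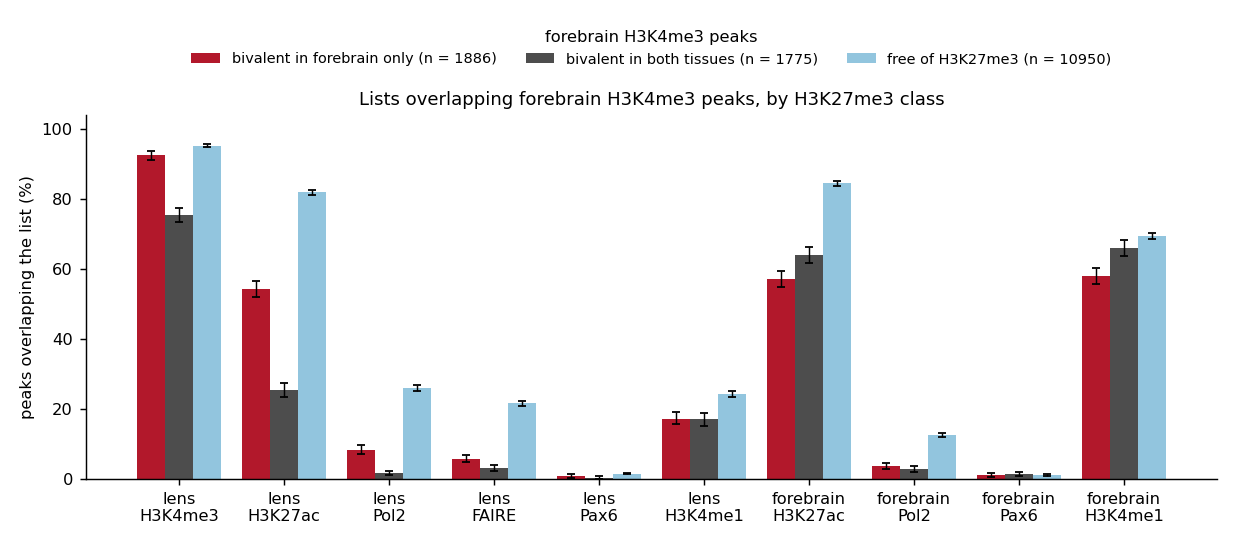
Share of forebrain H3K4me3 peaks (vertical axis, percent) that overlap each lens and forebrain list by at least 1 bp, for peaks bivalent in forebrain only (red), bivalent in both tissues (grey) and free of H3K27me3 (blue). Error bars are exact 95% intervals, which cover counting error only. In lens H3K27ac the 3 classes stand at 54.5%, 25.6% and 82.1%.

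In forebrain itself the order was different. Forebrain H3K27ac overlapped 1081 members, 57.3%, against 64.2% of the peaks bivalent in both tissues and 78.8% of all peaks. The difference between members and peaks bivalent in both tissues was -6.85 (-9.99 to -3.69). This call was lost when members within 1 kb of a lens island were left out and the peaks bivalent in both tissues were all kept. The difference was then -0.169, with an interval of -3.77 to 3.39. Under the other settings tried it stayed called, as at -12.2 (-16.0 to -8.30) with the peak summit on the forebrain island. Forebrain H3K4me1 overlapped 58.1% of members and 66.1% of peaks bivalent in both tissues (difference -8.03, -11.1 to -4.88), against 67.8% of all peaks. Forebrain Pol2 overlapped 70 members, 3.71%, and 2.87% of peaks bivalent in both tissues (difference 0.838, -0.330 to 2.01), against 10.5% of all peaks. Lens H3K4me1 overlapped 17.4% of members and 17.1% of peaks bivalent in both tissues (difference 0.265, -2.19 to 2.71), against 22.7% of all peaks. The last 2 differences were not called.

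Setting the tissues side by side at each member separates 4 states of H3K27ac. The mark was listed in lens alone at 279 members (14.8%), in both tissues at 748 (39.7%), in forebrain alone at 333 (17.7%) and in neither at 526 (27.9%). Over all autosomal peaks it was listed in both tissues at 64.2% and in neither at 14.1%, so members had it in both tissues less often and in neither more often than peaks in general. Lens-alone H3K27ac was found at 14.8% of members, 3.72% of peaks bivalent in both tissues and 6.36% of peaks free of H3K27me3, against 7.02% of all peaks. The member share exceeded both, by 11.1 (9.25 to 12.9) and by 8.44 (6.84 to 10.2). Forebrain-alone H3K27ac was found at 17.7% of members and 42.3% of peaks bivalent in both tissues (difference -24.7, -27.5 to -21.8), against 14.7% of all peaks. At members, then, H3K27ac in lens alone and in forebrain alone were similarly frequent, while at peaks bivalent in both tissues forebrain-alone acetylation was the more frequent of the pair.

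**Figure D2:**
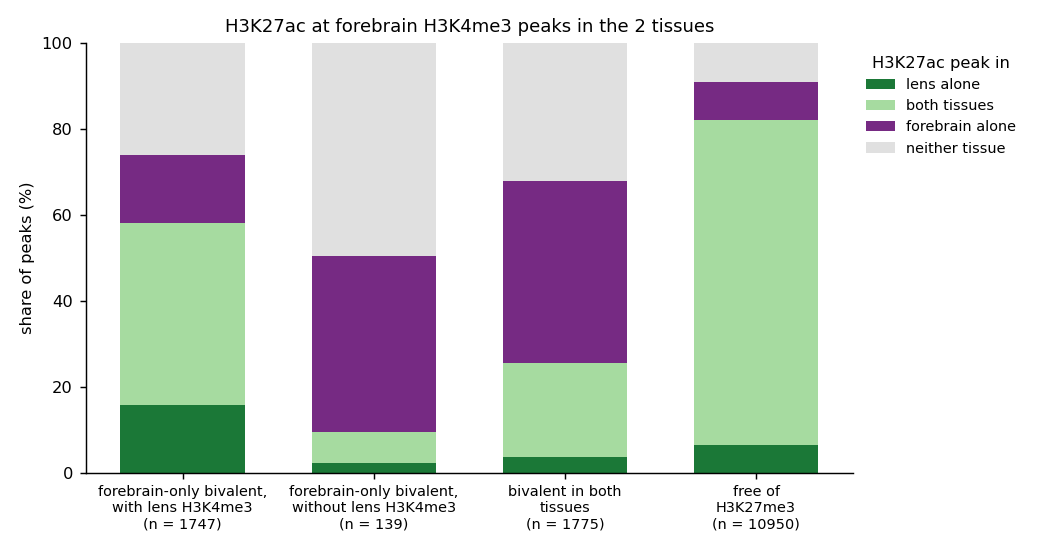
Share of peaks (vertical axis, percent) with an H3K27ac peak in lens alone, in both tissues, in forebrain alone or in neither. The bars stand for members with and without a lens H3K4me3 peak, peaks bivalent in both tissues and peaks free of H3K27me3. Lens-alone acetylation takes 15.8% of the members with lens H3K4me3 and 3.72% of the peaks bivalent in both tissues.

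Pol2 was listed in lens alone at 109 members (5.78%), in both tissues at 50 (2.65%) and in forebrain alone at 20 (1.06%). Over all autosomal peaks the 3 shares were 12.8%, 7.74% and 2.74%, each above that of the members. The lens Pol2 list held 3302 autosomal peaks and the forebrain list 1684. The part of this unequal length in the lens-alone and forebrain-alone shares was not tested. Lens-alone Pol2 was found at 5.78% of members and 1.13% of peaks bivalent in both tissues (difference 4.65, 3.51 to 5.87). Lens Pol2 was mostly found at members acetylated in both tissues, of which 128 of 748 (17.1%) had it. It was at 15 of the 279 members (5.38%) acetylated in lens alone, 5 of the 333 acetylated in forebrain alone and 11 of the 526 acetylated in neither.

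The lens H3K4me3 peak splits the members into 1747 with it and 139 without. Lens H3K27ac overlapped 1014 of the members with lens H3K4me3, 58.0%, and 13 of the members without it, 9.35% (difference 48.7, 42.3 to 53.1). Of the members with lens H3K4me3, 155 (8.87%) had lens Pol2, and 4 of those without it did (2.88%), a difference of 5.99 (1.53 to 8.25). That call rests on few peaks. The difference was 6.39 with an interval that includes 0 when peaks were compared within quartiles of width, and 5.51, also not called, without members within 1 kb of a lens island. FAIRE overlapped 107 of the members with lens H3K4me3 (6.12%) and 4 of those without it (2.88%), a difference of 3.25 that was not called (-1.16 to 5.38). Lens Pax6 overlapped 16 members with lens H3K4me3 and 1 without it. No lens list other than H3K4me1 overlapped more than 10% of the members without lens H3K4me3, and 120 of the 139 had none of lens H3K27ac, Pol2, FAIRE or Pax6.

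The members without lens H3K4me3 still carried forebrain marks. Forebrain H3K27ac overlapped 58.0% of the members with lens H3K4me3 and 48.2% of those without it (difference 9.84, 1.28 to 18.3). The direction was not kept among narrow peaks. At 211 to 450 bp of forebrain peak width the shares were 34.4% with and 45.9% of 109 without lens H3K4me3. At 451 to 741 bp they were 51.9% and 52.2% of 23, and at 742 to 1114 bp 75.6% and 66.7% of 6. Only 1 member without lens H3K4me3 was wider. Over all widths H3K27ac was listed in forebrain alone at 15.8% of the members with lens H3K4me3 and at 41.0% of those without it (difference -25.2, -33.7 to -17.2). Forebrain H3K4me1 overlapped 58.3% and 54.7% of the members with and without lens H3K4me3, and lens H3K4me1 overlapped 17.1% and 20.9% of them. Neither of these H3K4me1 differences was called (3.65, -4.72 to 12.3, in forebrain, and -3.75, -11.4 to 2.46, in lens).

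**Figure D3:**
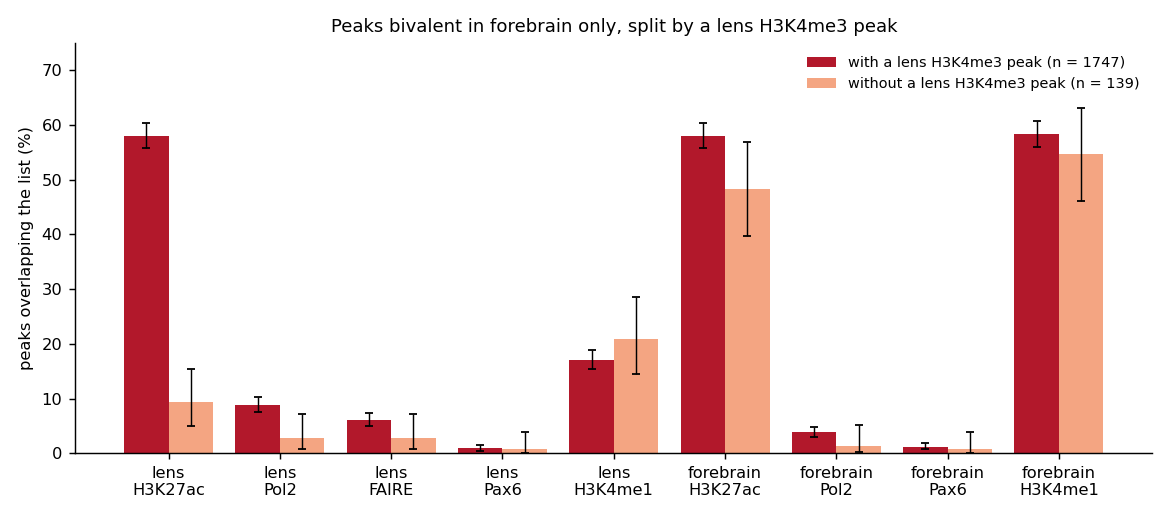
Share of members (vertical axis, percent) that overlap each list, for members with a lens H3K4me3 peak (red) and without one (orange), with exact 95% intervals for counting error. Lens H3K27ac separates the pair most, at 58.0% and 9.35%, and forebrain H3K4me1 stands at 58.3% and 54.7%.

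The split also follows peak size, which the forebrain list gives and which is described without a test. Members with lens H3K4me3 had a median forebrain peak width of 606 bp and those without it 303 bp. Their median fold enrichment over the control at the peak's highest point (the authors' own value) was 7.94 with and 4.94 without lens H3K4me3. All members together had a median width of 574 bp, against 614 bp for peaks bivalent in both tissues and 782 bp for peaks free of H3K27me3, and a median fold enrichment of 7.57, against 6.82 and 13.6. Of the 139 members without lens H3K4me3, 109 were at most 450 bp wide. Small forebrain peaks thus make up most of this set. Compared within quartiles of width, the lens H3K27ac difference between members with and without lens H3K4me3 was 50.7 (33.9 to 53.9). That value weights each quartile by all its members, although 6 members without lens H3K4me3 were 742 to 1114 bp wide and 1 was wider. At 211 to 450 bp lens H3K27ac overlapped 35.3% of 575 members with lens H3K4me3 and 10.1% of 109 without. At 451 to 741 bp it overlapped 52.5% of 484 with and 8.70% of 23 without. The gap among the narrowest peaks was thus smaller than the value over quartiles.

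Since an overlap of 1 bp is easier to reach for a wide peak, each class was also compared within quartiles of forebrain peak width taken over all autosomal peaks. Lens H3K27ac overlapped 31.3% of the members of 211 to 450 bp, 50.5% of those of 451 to 741 bp, 73.6% of those of 742 to 1114 bp and 87.5% of those of at least 1115 bp. At peaks bivalent in both tissues the same shares were 9.15%, 21.2%, 33.5% and 49.1%. The members' share was the higher in every quartile, by 22.1, 29.3, 40.0 and 38.4, and all 4 differences were called. Lens Pol2 overlapped 3.65%, 6.31%, 8.45% and 21.6% of the members in the 4 quartiles, against 0.321%, 2.12%, 1.24% and 3.95% of the peaks bivalent in both tissues, again called in every quartile. The widest members differed most from the peaks bivalent in both tissues in Pol2, by 17.7 (12.9 to 22.7). FAIRE overlapped 3.801%, 5.52%, 5.45% and 11.3% of the members, against 1.12%, 2.59%, 3.73% and 6.91% of the peaks bivalent in both tissues. Its difference was called in every quartile but that of 742 to 1114 bp, where it was 1.72 (-1.55 to 4.95).

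**Figure D4:**
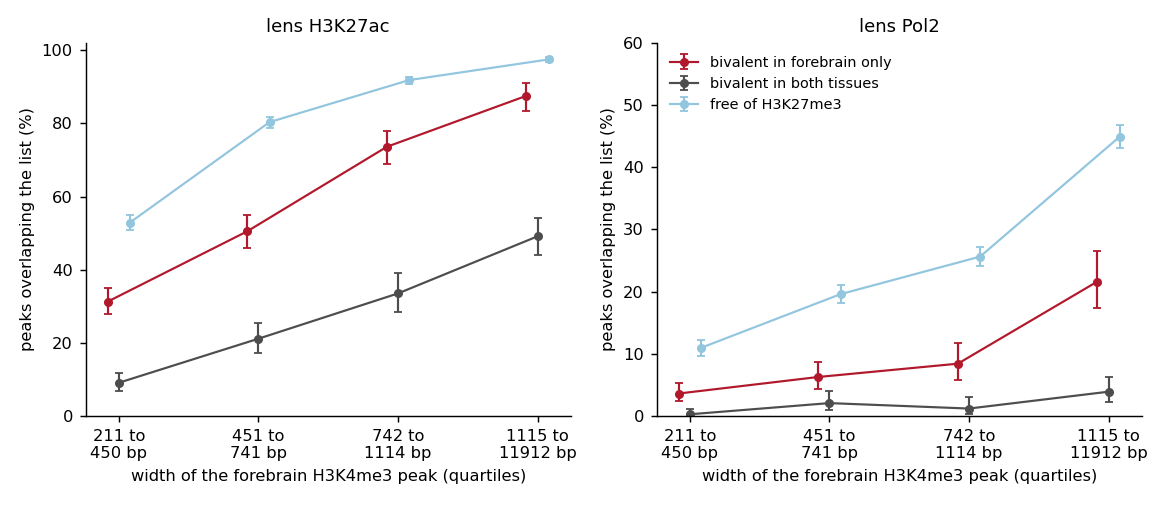
Share of peaks (vertical axes, percent) with lens H3K27ac (left) and lens Pol2 (right) in quartiles of forebrain H3K4me3 peak width (horizontal axes, bp), for members (red), peaks bivalent in both tissues (grey) and peaks free of H3K27me3 (blue), with exact 95% intervals for counting error. In both panels the members lie between the other classes in every quartile, and in the widest quartile lens Pol2 overlaps 21.6% of members and 3.95% of peaks bivalent in both tissues.

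Lens width is here the summed full width of all lens H3K4me3 peaks that overlap a forebrain peak. A lens peak that overlaps several forebrain peaks counts in full for each. Within the 1747 members with lens H3K4me3 this lens width was larger than the forebrain peak's width at 1307, 74.8% (72.7 to 76.8%). This was so at 50.4% of the peaks bivalent in both tissues that had lens H3K4me3 and at 59.7% of the peaks free of H3K27me3. These shares use the forebrain peak's own width, whose median where lens H3K4me3 was present was 606 bp at members and 710 bp at peaks bivalent in both tissues, so they are description only. The median lens width was 845 bp at members and 757 bp at peaks bivalent in both tissues, and the median lens fold enrichment was 11.1 at members, 8.53 at peaks bivalent in both tissues and 15.5 at peaks free of H3K27me3.

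Marks of activity in lens came together at a minority of the members. Lens H3K27ac and Pol2 shared 143 members, and 2950 of all 14893 autosomal peaks had both. Over all peaks, Pol2 was found at 27.8% of those with lens H3K27ac and at 2.54% of those without it. Among members, Pol2 was found at 13.9% of the 1027 with lens H3K27ac and at 1.86% of the 859 without it (difference 12.1, 9.77 to 14.4). FAIRE was found at 7.98% of members with and 3.38% of members without lens H3K27ac (difference 4.61, 2.53 to 6.69). Even among peaks with lens H3K27ac, Pol2 was found at 13.9% of members, at 5.51% of peaks bivalent in both tissues (difference 8.42, 5.23 to 11.3) and at 30.8% of peaks free of H3K27me3 (difference -16.9, -19.1 to -14.4). FAIRE among peaks with lens H3K27ac was found at 7.98% of members and 5.73% of peaks bivalent in both tissues, a difference that was not called (2.26, -0.688 to 4.81). Lens H3K4me3, H3K27ac and Pol2 were all listed at 141 of the 1886 members, against 19.7% of all peaks. Of the 141, 126 also had forebrain H3K27ac and 46 also had forebrain Pol2, with no matching count over all peaks given here. Adding FAIRE left 16 members, against 4.62% of all peaks. At the other end, 813 members (43.1%) had none of lens H3K27ac, Pol2, FAIRE or Pax6, as did 1278 (72.0%) of the peaks bivalent in both tissues, 14.1% of the peaks free of H3K27me3 and 25.3% of all peaks.

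Members differed in their distance to lens H3K27me3. The nearest lens island lay within 1 kb of 761 members (40.3%), at 1 to 10 kb of 274, at 10 to 100 kb of 484 and over 100 kb from 367. The forebrain island under a member overlapped a lens island elsewhere along its length at 875 members (46.4%). Along these distances lens H3K27ac overlapped 36.7%, 58.8%, 68.6% and 69.5% of members, and the share at over 100 kb exceeded that within 1 kb by 32.8 (26.8 to 38.4). Lens Pol2 overlapped 5.52%, 8.39%, 10.3% and 11.99% along the same distances (6.47 from end to end, 2.996 to 10.5). Forebrain H3K27ac overlapped 47.4%, 61.7%, 63.4% and 66.5% (19.0 from end to end, 12.9 to 24.9). Members next to lens H3K27me3 were thus less often acetylated in either tissue. The distances come from a list of the rule and were not compared within widths of the forebrain peak. A lens island lay within 1 kb of 58.3% of the members without lens H3K4me3, which were mostly narrow, and of 38.9% of those with it. The part of peak width in these shares was not tested.

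**Figure D5:**
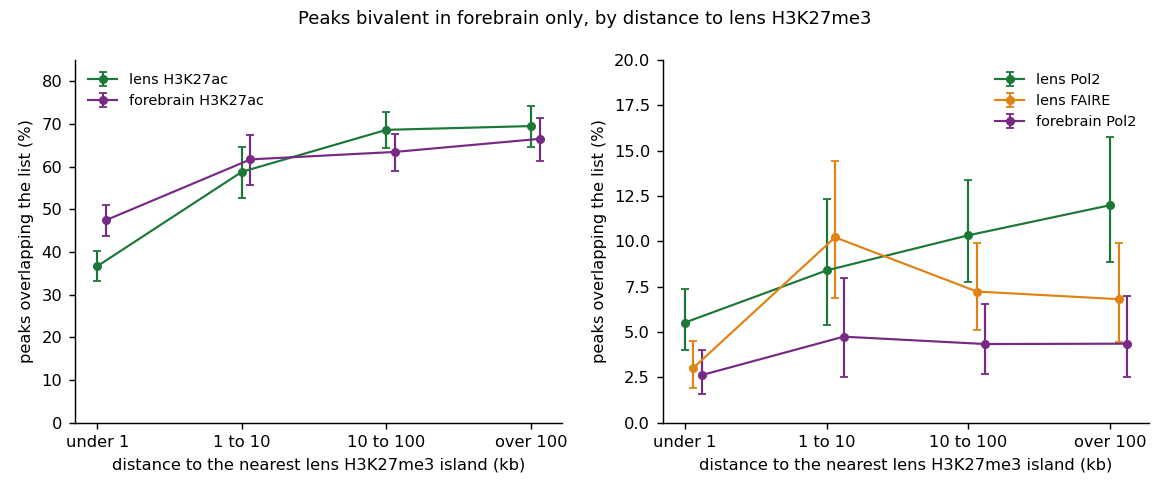
Share of members (vertical axes, percent) with H3K27ac (left) and with Pol2 or FAIRE (right), by distance to the nearest lens H3K27me3 island (horizontal axes, kb), with exact 95% intervals for counting error. Lens H3K27ac overlaps 36.7% of the 761 members within 1 kb and 69.5% of the 367 members beyond 100 kb.

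Members also differed by their place on the forebrain island. Of the members, 1012 (53.7%) lay wholly inside forebrain islands and 874 had an island edge within the peak. Lens H3K27ac overlapped 69.6% of the members with an island edge within the peak and 41.4% of those wholly inside (difference 28.2, 23.8 to 32.4). Lens Pol2 overlapped 12.7% of the members with an edge and 4.74% of those wholly inside (difference 7.96, 5.43 to 10.6), and forebrain H3K27ac 71.7% and 44.9% (difference 26.9, 22.5 to 31.1). A wide peak is more likely to cross an edge, so this split and the one by width share peaks. At 855 of the 1027 members with lens H3K27ac (83.3%) the acetylated stretch reached the bases shared with the forebrain H3K27me3 island, and in forebrain this held for 913 of 1081 members (84.5%). For peaks wholly inside an island it holds by construction. Among members with an island edge within the peak it held for 436 of 608 in lens (71.7%) and 459 of 627 in forebrain (73.2%).

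Members were less frequent on islands of high H3K27me3 enrichment. The ratio of ChIP to control reads, scaled by the authors for library size, had a median of 4.65 on the islands under members and 5.96 on those under peaks bivalent in both tissues. In quartiles of that ratio over all 3661 bivalent peaks, from weak to strong, members were 65.3%, 53.9%, 46.2% and 40.5% of the peaks. These counts use the lists of the rule and are description only. Among members, forebrain H3K27ac overlapped 43.1% in the strongest quartile of their islands and 74.4% in the weakest (difference -31.3, -37.0 to -25.2). Lens H3K27ac overlapped 49.3% in the strongest and 59.3% in the weakest (difference -10.1, -16.3 to -3.71).

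Coordinates from here on are 1-based on mouse build mm9, the build of the lists. At the limits of the rule, 87 members shared only 1 to 50 bp with a forebrain island and 64.4% of them had lens H3K27ac, while 56.4% of the 110 peaks that missed a forebrain island by at most 50 bp had it. On the lens side, 93 members had a lens island within 50 bp and 31.2% of them had lens H3K27ac, while 29.5% of the 95 peaks that overlapped a lens island by 1 to 50 bp had it. The shortest overlap with a forebrain island was 1 bp, at chr13:95558800-95559672, then 3 bp at chr2:75776132-75777003 and chr15:80003598-80003880. The lens islands nearest to a member lay 1 bp from chr12:11462914-11463199 and chr6:41554576-41555999 and 3 bp from chr14:55733604-55734259. These distances of 1 to 3 bp depend on reading the islands' end positions as inclusive. At each limit the shares just inside and just outside lay within each other's intervals.

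Single regions show these states. Genes at these positions were not analysed here. The forebrain H3K4me3 peak of highest fold enrichment among members, chr19:37281296-37283167, reached 30.3 in forebrain and 20.2 in lens. It shared 305 bp with an H3K27me3 island of 5000 bp and carried lens H3K27ac (8.60) and lens Pol2 (5.13), with forebrain H3K27ac and no forebrain Pol2. The next 4, chr6:137683277-137684796, chr15:98592656-98594038, chr2:26357364-26359332 and chr3:87329179-87330223, also had lens H3K4me3, H3K27ac and Pol2 and forebrain H3K27ac. The 5 members of highest forebrain fold enrichment thus had H3K27ac in both tissues, and 4 of them overlapped their islands by less than 20% of their width.

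The peak at chr2:26357364-26359332 is one of the 16 members with lens H3K4me3, H3K27ac, Pol2 and FAIRE together. Of its 1969 bp, 88.0% lay on a forebrain island of 3200 bp, and the nearest lens island was 154868 bp away. Its lens fold enrichments were 27.5 for H3K4me3, 18.4 for H3K27ac and 7.14 for Pol2, and forebrain Pol2 was listed there as well. Another, chr11:58762378-58763625, lay wholly inside its island of 10800 bp and had a lens Pol2 fold enrichment of 12.04. The remaining ones named by the same rule were chr1:16093433-16096523, chr8:127536595-127537710 and chr10:30522016-30523445, and all 5 had forebrain H3K27ac.

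The highest lens H3K4me3 fold enrichment among members was 33.4, at chr19:56895823-56897015, followed by 30.3 at chr15:12250673-12252566, 29.9 at chr1:94369569-94370781 and 29.5 at both chr6:39368921-39370684 and chr17:86020788-86021818. All 5 had lens H3K27ac, and only the chr15 peak among them had lens Pol2. The chr17 peak differed from the other 4. It lay wholly inside a forebrain H3K27me3 island of 65800 bp with 8261 ChIP and 517 control reads, had a forebrain fold enrichment of 7.32 and no forebrain H3K27ac, Pol2 or H3K4me1. Its lens H3K4me3 width, summed as above, was 3600 bp over a forebrain peak of 1031 bp, with a lens H3K27ac fold enrichment of 15.1.

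Among members without lens H3K4me3, the highest forebrain fold enrichment was 17.9, at chr8:12395687-12396232. It lay wholly inside an island of 24200 bp with a ratio of 14.3, had Pol2 in both tissues (5.35 in lens) and forebrain H3K27ac, and had a lens H3K27me3 island 486 bp away. The next 4, chr3:34554989-34556631, chr6:82889330-82889668, chr4:154011147-154011515 and chr9:44925915-44926435, had fold enrichments of 8.08 to 8.84. All 4 had forebrain H3K27ac and none of lens H3K27ac, Pol2, FAIRE or Pax6, and each had a lens H3K27me3 island within 1 kb. The chr3 peak was also the widest without lens H3K4me3, at 1643 bp, followed by chr1:72920305-72921351 and chr16:44663721-44664745.

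Pax6 was rare at members in both tissues. It overlapped 17 members in lens and 22 in forebrain (1.17%, against 1.34% of all peaks). The forebrain share among peaks bivalent in both tissues was 1.46% (difference -0.298, -1.08 to 0.455). Together 30 members had a Pax6 peak, 8 in lens alone (0.424%), 9 in both tissues (0.477%) and 13 in forebrain alone (0.689%), against 0.792%, 0.618% and 0.718% of all peaks. Of the 17 with lens Pax6, 14 had lens H3K27ac, as did 158 of the 210 with lens Pax6 among all peaks. FAIRE overlapped 4 of the 17. Of the 210 over all peaks, FAIRE was listed at 31 that had neither lens H3K27ac nor lens Pol2. It was also listed at 60 with lens H3K27ac but no lens Pol2 and at 14 with both. Of the 22 members with forebrain Pax6, 16 had forebrain H3K27ac, with no matching count over all peaks given here. The highest lens Pax6 fold enrichment at a member was 11.2, at chr2:4639538-4639801, a peak of 264 bp with lens H3K4me3 but no H3K27ac in either tissue. The peaks chr6:54514582-54515110 and chr6:54515429-54516458 share 1 lens Pax6 peak (10.5) and 1 forebrain H3K27me3 island, so these 2 members hold 1 Pax6 peak between them.

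The highest forebrain Pax6 fold enrichment was 14.3, at chr6:144997022-144997326, which had lens Pax6 (7.56), lens H3K4me3 and lens H3K27ac but no forebrain H3K27ac. It was followed by chr7:119823091-119824645 (13.2), chr2:115885888-115891495 (10.9), chr8:83866006-83866745 (10.01) and chr14:70977247-70978205 (9.49). All of these but the chr8 peak also had lens Pax6 and lens H3K27ac. The chr2 peak was the widest member, at 5608 bp, and carried FAIRE and H3K27ac in lens. The next widest with lens H3K4me3, chr4:82145628-82151232 and chr9:35229134-35234439, had FAIRE and H3K27ac in lens too but no Pax6, and none of these 3 had Pol2 in either tissue. The only member with lens Pax6 but no lens H3K4me3 was chr17:48061903-48062155 (7.89), which had forebrain Pax6 (4.35) and forebrain H3K27ac.

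The members were spread over 1761 forebrain islands. Of these, 1654 held 1 member, 94 held 2 and 13 held 3 or more, so most members were alone on their island. The most on 1 island was 4, on 5 islands. The first, chr2:105487801-105533800, was 46000 bp long with 5030 ChIP and 344 control reads and a ratio of 10.7, and also held 3 peaks bivalent in both tissues. All 4 of its members had lens H3K4me3, lens H3K27ac and forebrain H3K27ac, and 3 had lens Pol2. On chr13:78339001-78356000 all 4 members had lens H3K4me3 and 3 had lens H3K27ac. On chr2:115882001-115889400 and chr4:82153601-82158800 only 1 of 4 members had lens H3K4me3, although all 4 had forebrain H3K27ac. Lens H3K27ac was at 1 of 4 members on that chr2 island and at 3 of 4 on the chr4 island, where it thus lay also at members without lens H3K4me3. On chr14:51706401-51712200, 3 of 4 had lens H3K4me3, 1 had lens H3K27ac and none had forebrain H3K27ac.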

How the data were processed

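Members and lists were chosen with earlier results of these data known. The named regions follow a rule: the 5 highest fold enrichments and 3 widest peaks with and without lens H3K4me3, the 5 highest lens H3K4me3, lens Pax6 and forebrain Pax6 fold enrichments, 5 peaks with all 4 lens features the 3 shortest overlaps with a forebrain island, the 3 members nearest to a lens island, and the islands with most members, where all 5 tied islands were named instead of 3.

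Peaks of H3K4me3, H3K27ac, Pol2 and Pax6 were called by the authors with MACS2, and H3K4me1 and H3K27me3 islands with SICER, both on mm9, per the submitters' processing notes. The windows of 200 bp, gaps of 600 bp and FDR of 0.001 are given in the names of the island lists. The deposited peak lists give a fold enrichment and a -log10 q-value per peak. The deposited island tables give raw counts of ChIP and control reads, their ratio, and the p-value and FDR of each island. The deposited FAIRE list gives positions with no score. For RNA the authors deposited RPKM. The submitters' processing notes name TopHat2, Cufflinks and Cuffdiff. Not given in the sources used here are the ChIP aligner and how 2 forebrain Pax6 libraries became 1 list.

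Overlaps needed 1 shared bp. The code matched bedtools 2.31.1 in 24 of 24 settings. It also recovered 300 of 300 intervals planted inside peaks of the forebrain H3K4me3 list, a check of the code alone. Python 3.11.15, pandas 2.3.3, scipy 1.17.1 and statsmodels 0.14.6 were used. Reads are not independent molecules and neighbouring peaks can share an island. Intervals cover counting error only and treat each peak as independent, so they may be too narrow. No annotation of mm9 was used here, so peaks were not tied to genes or to RNA, and no sequence was read. The 12 alternatives changed the overlap, thresholds, island lists and widths.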

Additional observations from a re-analysis of the deposited data

Results flagged for a closer look

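H3K27ac differed between members and peaks bivalent in both tissues in opposite directions in the 2 tissues. In lens the share of members exceeded that of peaks bivalent in both tissues by 28.9 percentage points (25.8 to 31.9), and in forebrain the difference was -6.85 (-9.99 to -3.69). The difference between the tissues itself was not tested, since each had 1 library. Without members within 1 kb of a lens H3K27me3 island the forebrain difference was -0.169 and the lens difference 40.9.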

How the results depend on the processing

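Each of 11 results was recomputed under up to 12 alternatives, 125 values in all. Of these, 111 kept their direction and call (counts within 1.5 times). The lens Pax6 difference between members with and without lens H3K4me3, 0.196 and not called, changed sign, also not called, to -0.599 without members within 1 kb of a lens island, -0.376 with other peaks at a -log10 q of at least 10 and -0.0235 with marks overlapping by 0.5 of the shorter interval. The number of members was 1125 without those within 1 kb of a lens island and 1173 when the peak summit had to lie on the forebrain island, an alternative chosen after seeing the data. The lens Pax6 difference between members and peaks bivalent in both tissues became called, at 0.652 with an H3K27me3 overlap of 0.5 of the shorter interval and at 1.86 with marks within 1 kb. The lens Pol2 difference between members with and without lens H3K4me3 was no longer called at 2.93 with the 0.5 overlap, 5.51 without members within 1 kb of a lens island, 2.63 with other peaks at a -log10 q of at least 10, 6.39 within width quartiles and 3.40 with the summit on the island. The forebrain H3K27ac difference was no longer called at -0.169 without members within 1 kb of a lens island. The FAIRE difference by lens H3K4me3 became called, at 7.13, when peaks at most 1 kb apart were merged, also chosen after seeing the data. The differences in lens H3K4me3, H3K27ac, Pol2 and FAIRE between members and peaks bivalent in both tissues stayed called under every alternative that gave them a value. The cause of each change was not tested. The lens H3K27me3 list has fewer reads than the forebrain list, and the 139 members without lens H3K4me3 limit the precision of that split. No paired analysis was possible because each result compares sets of peaks within lists from 1 library. FAIRE has no score, so a stricter list could not be made, and RNA at members was not run.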

Other observations

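Joined at distances of at most 1 kb, the members fell into 1732 loci, of which 1399 held members and no other forebrain H3K4me3 peak, 96 also held a peak bivalent in both tissues and 241 also held a peak free of H3K27me3. Another forebrain H3K4me3 peak lay within 1 kb of 603 members. By autosome, members were between 9.76% (chromosome 7) and 15.3% (chromosome 16) of the forebrain H3K4me3 peaks.

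Among acetylated peaks with an island edge within the peak, the bases shared with the forebrain H3K27me3 island carried forebrain H3K27ac at 73.2% of 627 members and 86.5% of 400 peaks bivalent in both tissues. For lens H3K27ac the shares were 71.7% of 608 members and 57.7% of 213 peaks bivalent in both tissues. Peaks wholly inside an island are left out of these counts, since there any overlap falls on the shared bases.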
